A study of Mus musculus with 12 samples.

Results

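The lung transcriptome of mice carrying Cc10-Cre together with a floxed Rhoa gene was compared with that of mice carrying Cc10-Cre alone, in animals given PBS and no CRE. The comparison took all libraries that the labels assign to these groups, 6 of 12 libraries in the series. The knockout group (CKO_PBS) is labelled with the Rhoa fl/fl allele on top of Cc10-Cre and the genotype RhoACKO, and its 3 libraries received PBS. The control group (WT_PBS) carries Cc10-Cre and the genotype RhoAWT, and its 3 libraries also received PBS. Both groups therefore carry the recombinase, which is driven by the Cc10 promoter and is meant to act in club cells only. The other 6 libraries are the same pair of genotypes given CRE (CKO_CRE and WT_CRE, 3 libraries each), an agent that the labels do not spell out and that is not the recombinase. The RNA came from lung tissue, so every cell of the lung contributed to each library. The labels give no age, strain or sex, do not say whether animals were pooled, and do not say that numbered libraries came from separate animals. The p-values thus measure the spread between these libraries, which may in part be technical.

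RhoA is a small GTPase that switches between a GTP-bound active and a GDP-bound inactive form, and in its active form it binds the ROCK kinases and the formins to build actomyosin fibres and to hold epithelial junctions under tension. Club cells, formerly called Clara cells, are secretory cells of the small airways. They make secretoglobins, among them the Cc10 protein encoded by Scgb1a1, they metabolise foreign compounds with P450 enzymes, and they can renew the airway epithelium.

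The 6 libraries held between 16941763 and 21559210 counts each. Values are given as CPM, counts scaled to the size of each library after correction for composition by the TMM method, and differences as log2 CKO_PBS minus WT_PBS with the standard error of the fit. Markers of lung were present in all 6 libraries, with Sftpc of type 2 alveolar cells between 13900 and 16300 CPM and Ager of type 1 cells between 1715 and 2073 CPM. Scgb1a1 itself, which gives the Cre driver its name, was counted at only 24.3 to 46.7 CPM. Scgb3a2, another secretoglobin, was at 1102 to 2419 CPM in the same libraries. Whether the count of Scgb1a1 measures the gene well was not tested. By the counts of Y-linked genes, CKO_PBS replicate 2 was female and the other 5 libraries were male.

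Rhoa, the targeted gene (ENSMUSG00000007815, chromosome 9, 108306129 to 108337934 on the plus strand of GRCm38), was counted at 488, 471 and 485 CPM in the WT_PBS libraries. In the CKO_PBS libraries it stood at 469, 398 and 481 CPM. The groups overlapped, with 1 knockout library below the rest and the other two at the control level. The difference was -0.10 ± 0.10 on the log2 scale, with an adjusted p of 1 in edgeR's quasi-likelihood test. Its 95% interval ran from 19.3% lower to 7.94% higher in the knockout. A larger fall of Rhoa counts in whole lung lay outside the interval. The counts are per gene, so any transcripts without the floxed part cannot be told apart from intact ones. A loss restricted to a minority of lung cells was not resolved at this precision. Counting could also have been shared with Gm12844, a copy of the Rhoa coding sequence on chromosome 4 that is 98.1% identical over 582 bases. The tested genes nearest to Rhoa, 3 on each side (Nicn1, Amt, Tcta, Gpx1, Usp4 and Gm37963), all had overlapping groups and an adjusted p of 1.

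Of 4 lists for RhoA signalling, 0 members were called. They held 17 GTPases of the RhoA family, 26 effectors and actomyosin genes, 21 regulators of these GTPases and 22 target genes of the SRF and YAP transcription factors. edgeR called 0.109% of all tested genes, so that a count of 0 is near the background. DESeq2 and limma-voom, which called 0.315% and 0.309% of genes higher and 0.338% and 0.527% lower, called 0 members as well. The medians of the 4 lists were 0.05, -0.00, -0.02 and -0.03, against 0.002 over all 17473 tested genes. Rhob, a close relative of RhoA that also acts on endosomes, was at 426, 463 and 439 CPM in WT_PBS against 277, 443 and 411 CPM in CKO_PBS. Its groups overlapped, and the 95% interval ran from 32.7% lower to 7.60% higher. Rhoc, another relative, had an interval from 10.7% lower to 24.5% higher. For the kinases that carry the signal to myosin, the interval was 17.1% lower to 15.4% higher for Rock1 and 9.15% lower to 39.1% higher for Rock2. Of the effectors, Limk1, which phosphorylates cofilin (log2 0.28, adjusted p = 0.671), and Ezr, which links actin to the membrane (log2 0.25, adjusted p = 0.796), were higher at an unadjusted p below 0.05, a threshold that 2.87% of all tested genes met in that direction. Of the regulators, Net1, an exchange factor for RhoA, was lower at that threshold (log2 -0.23, adjusted p = 0.937), as were 2.45% of all tested genes.

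Across the transcriptome, 19 of 17473 genes (0.109%) differed between the genotypes at an adjusted p below 0.05. Of these 7 were higher in the knockout (0.0401% of tested genes) and 12 were lower (0.0687%). All 19 had groups that did not overlap, which 15.2% of all tested genes also had. The difference was at least 2-fold for 16 of them. The count depended on single libraries: leaving out control replicate 2 or 3, or knockout replicate 3, gave 12 calls, leaving out knockout replicate 2 gave 33, and leaving out CKO_CRE replicate 2 gave 53, although that is a library that enters only through the shared estimate of spread. The genes divide into 8 protein-coding genes on chromosome 9 that were lower, with a ribosomal protein gene, an antisense gene and the annotated protein-coding gene Gm32742 on the same chromosome, 5 processed pseudogenes that were higher, and 3 protein-coding genes elsewhere. The 8 include metabolic enzymes, a ubiquitin ligase and members of a poorly characterised family.

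**Figure D1:**
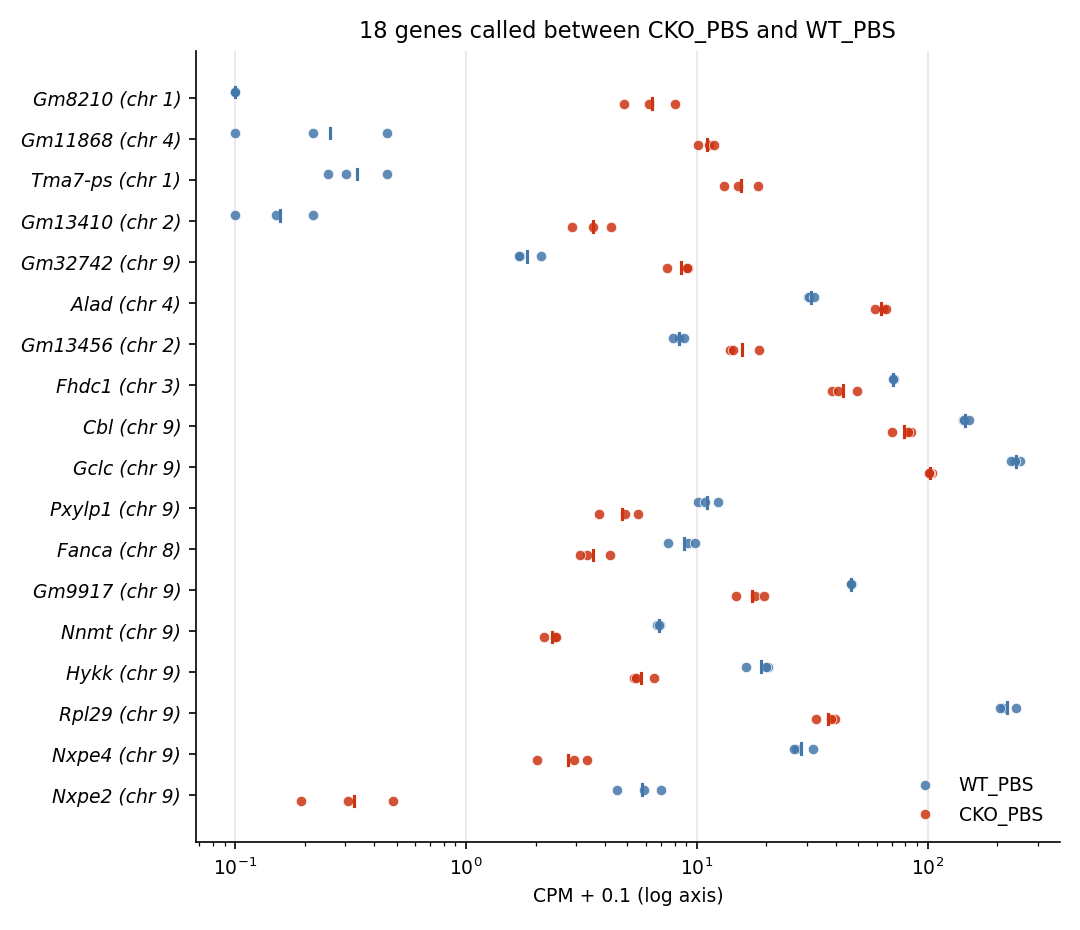
Level of 18 of the 19 called genes in the 6 libraries given PBS, as CPM plus 0.1 on a log axis, with 1 point per library, a vertical bar at the mean of each group and the chromosome in brackets. No knockout point lies among the control points of the same gene, and the gap is widest for the pseudogenes Tma7-ps, Gm8210 and Gm11868 at the higher side and for Nxpe4 and Nxpe2 at the lower side.

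Gclc (chr9:77754535-77794485) encodes the catalytic subunit of glutamate-cysteine ligase, the rate-limiting enzyme of glutathione synthesis. It was at 252, 238 and 230 CPM in WT_PBS and at 104, 103 and 101 CPM in CKO_PBS (log2 -1.23 ± 0.12, edgeR adjusted p = 0.000572). The 3 knockout libraries lay close together at less than 0.5 of the lowest control. Of the 31 tested genes of glutathione metabolism and the NRF2 response, edgeR and DESeq2 called Gclc lower and no other member. Limma-voom also called Mgst1 lower, and the median of the list was 0.01. EdgeR called 0.109% of all tested genes, so a count of 0 among the others is near the background. DESeq2 and limma-voom called 0.338% and 0.527% of all genes lower. Gclm, which encodes the modifier subunit of the same enzyme, was at 51.4, 54.4 and 52.2 CPM in WT_PBS against 51.8, 60.4 and 58.2 CPM in CKO_PBS, with overlapping groups. Mgst1 and Gsta4, 2 glutathione transferases, were lower at an unadjusted p below 0.05 (log2 -0.31 for both, adjusted p = 0.413 and 0.513). Ggt5 and G6pdx, which cleave glutathione conjugates and supply NADPH, were higher at that threshold (log2 0.69 and 0.29, adjusted p = 0.589 and 0.624).

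Nnmt (chr9:48591877-48605153) encodes nicotinamide N-methyltransferase, which consumes nicotinamide and S-adenosylmethionine. Its level was 6.82, 6.60 and 6.78 CPM in WT_PBS against 2.33, 2.08 and 2.35 CPM in CKO_PBS (log2 -1.58 ± 0.22, edgeR adjusted p = 0.0165). It was the only called member of 21 genes of nicotinamide and NAD metabolism, whose median was -0.06. Since edgeR called 0.109% of all tested genes, a count of 0 among the others is near the background. Naprt, which makes NAD from nicotinic acid, was higher at an unadjusted p below 0.05 (log2 0.47, adjusted p = 0.377), and Nmnat3, a mitochondrial step of NAD synthesis, was lower (log2 -0.68, adjusted p = 0.689). Nnmt lost its call when any single PBS library was left out, with adjusted p between 0.0537 and 0.0906.

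Nxpe4 and Nxpe2 belong to the neurexophilin and PC-esterase domain family and are neighbours on chromosome 9. Nxpe4 (chr9:48162023-48400025) was at 31.7, 26.8 and 26.2 CPM in WT_PBS and at 2.84, 3.23 and 1.92 CPM in CKO_PBS (log2 -3.40 ± 0.30, edgeR adjusted p = 0.000254). Nxpe2 (chr9:48318006-48353454) was at 6.87, 5.79 and 4.42 CPM in WT_PBS and at 0.207, 0.0924 and 0.384 CPM in CKO_PBS, which corresponds to 4, 2 and 8 reads (log2 -4.61 ± 0.46, adjusted p = 0.000785). Every knockout library was far below every control for both genes. Their annotated spans overlap on opposite strands. The related Nxpe3 was not called and was at 19.2, 18.4 and 15.8 CPM in WT_PBS against 26.3, 19.3 and 25.8 CPM in CKO_PBS (log2 0.42, adjusted p = 0.874). Of 6 tested members of the family and its neurexophilin relatives, these 2 were called lower and 0 were called higher. Over all tested genes edgeR called 0.0687% lower and 0.0401% higher. The list was chosen with earlier results of these data known, so its counts are no separate support for a change of the family. At an unadjusted p below 0.05, 3 were lower, the 2 called genes among them, and 1 was higher, against 2.45% and 2.87% of all tested genes. The higher one was Nxpe3, and the lower ones included Nxph3 (log2 -0.66, edgeR adjusted p = 0.578).

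Hykk (chr9:54917283-54949924), which encodes hydroxylysine kinase, was at 20.3, 19.7 and 16.3 CPM against 6.41, 5.22 and 5.33 CPM (log2 -1.73 ± 0.18, edgeR adjusted p = 0.000804). Its highest knockout library was below 0.4 of the lowest control. Cbl (chr9:44142976-44234049), a ubiquitin ligase that ends signalling from receptor tyrosine kinases, was at 141, 144 and 150 CPM against 69.9, 84.2 and 82.3 CPM (log2 -0.88 ± 0.09, adjusted p = 0.000804). Pxylp1 (chr9:96823336-96892669) removes the phosphate from the xylose that starts glycosaminoglycan chains. Its level was 10.1, 12.2 and 10.7 CPM in WT_PBS against 5.48, 3.65 and 4.81 CPM in CKO_PBS (log2 -1.24 ± 0.17, adjusted p = 0.0114). It missed the threshold when control replicate 2 (adjusted p = 0.1), control replicate 3 (0.0675) or knockout replicate 3 (0.0744) was removed. None of the other 18 tested genes of the proteoglycan linker and heparan sulfate list was called, near the 0.109% called over all tested genes.

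Gm9917, an antisense gene, and Gm32742, annotated as protein-coding, are chromosome 9 genes without an established role. Gm9917 (chr9:107558809-107568415) was at 46.9, 46.4 and 46.4 CPM in WT_PBS and at 17.7, 14.7 and 19.4 CPM in CKO_PBS (log2 -1.43 ± 0.18, edgeR adjusted p = 0.0061). It overlaps Rassf1 and Tusc2 on the opposite strand, and since the counting is not stated to use strand, reads of these genes cannot be told apart. Rassf1, a tumour suppressor with a Ras-association domain, was at 27.8, 26.2 and 24.6 CPM in WT_PBS against 32.0, 33.7 and 29.6 CPM in CKO_PBS and was not called (log2 0.28, adjusted p = 0.51). Gm32742 (chr9:51130307-51165517) was the one chromosome 9 gene that rose, from 2.02, 1.61 and 1.59 CPM to 9.04, 8.96 and 7.35 CPM (log2 2.27 ± 0.35, adjusted p = 0.0337). It lost its call without any single PBS library, or without WT_CRE replicate 1 or 3, with adjusted p from 0.0591 to 0.306.

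By position, 11 of the 19 called genes lay on chromosome 9, or 57.9% of calls, against 978 of the tested genes (5.6%). Rpl29 lay 1.88 Mb and Gm9917 0.75 Mb before the start of Rhoa. The other described genes were farther away on the centromeric side, Pxylp1 at 11.48 Mb, Gclc at 30.55 Mb, Hykk at 53.39 Mb, Gm32742 at 57.18 Mb, the cluster of Nnmt, Nxpe2 and Nxpe4 at 59.71 to 60.14 Mb, and Cbl at 64.16 Mb. Of the called genes on this chromosome 10 were lower and 1 was higher. Below the adjusted threshold the chromosome also stood apart: 12.8% of its tested genes had an unadjusted p below 0.05, against 5.32% over all tested genes and between 2.76% and 8.01% on each of the other chromosomes. Groups did not overlap for 24.8% of its genes, against 15.2% over all tested genes. In windows of 10 Mb the share with an unadjusted p below 0.05 lay between 9.57% and 22% from 70 Mb before Rhoa to 10 Mb after it, and between 4.17% and 8.16% in the windows outside that stretch. These shares were not tested, and genes of 1 chromosome are not independent of each other. The floxed allele and the intended loss of Rhoa go together in these groups, so what each contributes to the chromosome 9 differences cannot be told apart.

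**Figure D2:**
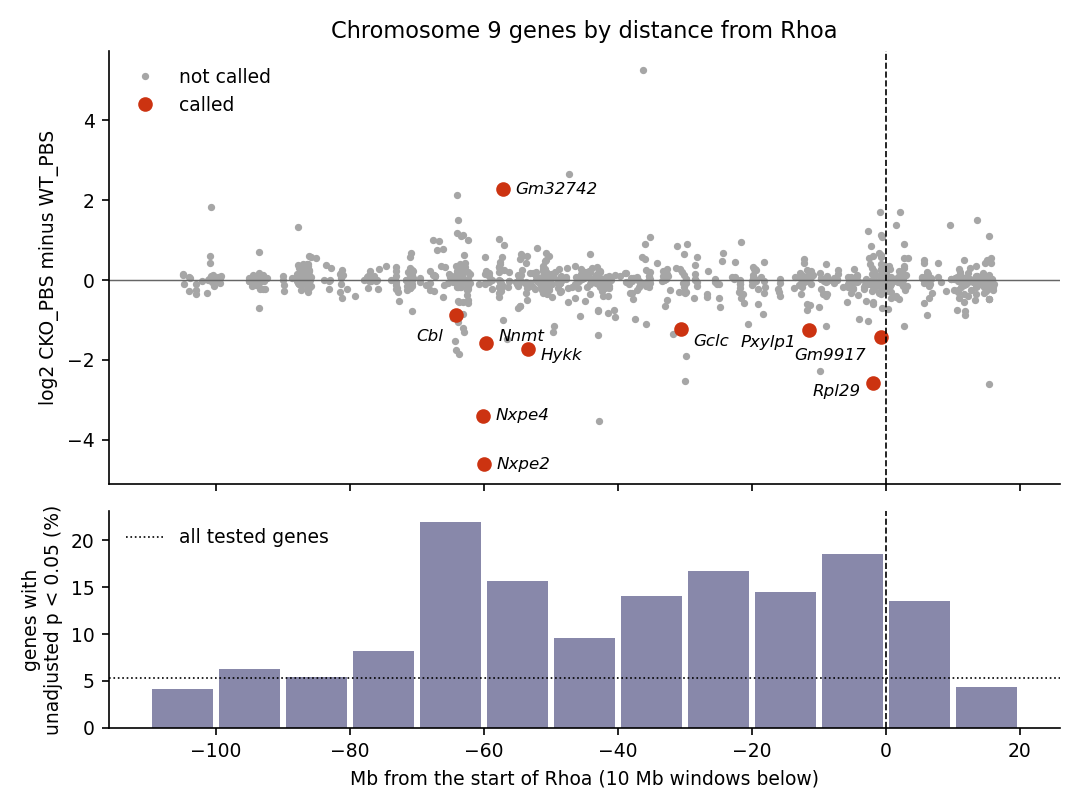
Upper panel, log2 difference between CKO_PBS and WT_PBS for the tested chromosome 9 genes, 1 called gene left out, against its distance in Mb from the start of Rhoa, with 10 of the 11 called genes as larger points. Lower panel, share of genes in each 10 Mb window with an unadjusted p below 0.05 in percent, with the share over all tested genes, 5.32%, as a dotted line; the windows from 70 Mb before Rhoa to 10 Mb after it hold 9.57% to 22%.

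Rpl29, a protein of the large ribosomal subunit, fell from 212, 205 and 241 CPM in WT_PBS to 32.8, 39.5 and 38.2 CPM in CKO_PBS (log2 -2.57 ± 0.15, edgeR adjusted p = 6.3e-06). The highest knockout library was below 0.2 of the lowest control. A processed pseudogene of Rpl29 moved the other way. Gm8210 on chromosome 1 had no counts in the 3 WT_PBS libraries and 4.75, 6.10 and 7.98 CPM, or 92, 132 and 166 reads, in CKO_PBS (adjusted p = 0.000127). Against a floor of 3 counts per library, 0.151 to 0.177 CPM, it was at least 39.3-fold higher. A comparable rise was that of Tma7-ps, a processed pseudogene of Tma7, which encodes a small protein associated with translation. Tma7-ps was at 0.152, 0.202 and 0.354 CPM in WT_PBS, from 3, 4 and 6 reads, and at 14.9, 18.3 and 13 CPM in CKO_PBS, from 289, 396 and 270 reads (log2 6.02 ± 0.31, adjusted p = 3.92e-06).

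How little separates these copies from their parents is seen in the sequences. Within these bases a read can be assigned to a parent or its copy only where they differ. The part of read assignment in these values was not tested. The coding sequence of Tma7 (chromosome 9, minus strand, within chr9:109074568-109082587) and Tma7-ps (chr1:171711088-171711282, plus strand) are both 195 bases long and 99.0% identical. Likewise, the coding sequence of Rpl29 (chromosome 9, plus strand, within chr9:106429454-106431568) and Gm8210 (chr1:43189156-43189638, plus strand) are both 483 bases long and 99.4% identical. All are from the GENCODE M21 annotation of GRCm38, written 5′ to 3′, and capitals mark the bases that differ within each pair. The Tma7 pair is shown whole, and of the Rpl29 pair the 250 bases that hold the first 2 of its 3 differences.
Tma7: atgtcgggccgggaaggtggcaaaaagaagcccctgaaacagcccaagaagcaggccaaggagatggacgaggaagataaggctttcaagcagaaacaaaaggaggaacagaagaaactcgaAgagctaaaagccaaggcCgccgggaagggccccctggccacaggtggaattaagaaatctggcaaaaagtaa
Tma7-ps: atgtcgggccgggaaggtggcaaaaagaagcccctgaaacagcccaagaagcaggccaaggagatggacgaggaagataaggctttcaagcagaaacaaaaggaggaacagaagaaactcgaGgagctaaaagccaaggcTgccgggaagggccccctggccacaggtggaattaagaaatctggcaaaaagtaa
Rpl29, bases 61 to 310: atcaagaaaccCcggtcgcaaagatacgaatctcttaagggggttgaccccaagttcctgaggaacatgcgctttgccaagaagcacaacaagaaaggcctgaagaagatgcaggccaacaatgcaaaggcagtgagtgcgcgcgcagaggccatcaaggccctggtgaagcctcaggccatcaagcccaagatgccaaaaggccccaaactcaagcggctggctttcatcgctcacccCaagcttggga
Gm8210, bases 61 to 310: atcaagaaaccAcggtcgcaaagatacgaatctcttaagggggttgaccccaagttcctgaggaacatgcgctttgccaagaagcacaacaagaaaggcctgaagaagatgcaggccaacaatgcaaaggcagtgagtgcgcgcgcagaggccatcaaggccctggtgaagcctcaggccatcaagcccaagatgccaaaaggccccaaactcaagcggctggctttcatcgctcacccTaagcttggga
Counted from 1 at the A of the start codon, with the base of the parent first, the pair of Tma7 differs by A123G and C141T. The Rpl29 pair differs by C72A, C300T and T423C. A second Rpl29 pseudogene, Gm13841 on chromosome 5, has the same 3 substitutions as Gm8210, so these 2 copies differ from each other nowhere in these 483 bases. Gm13841 was at 0.910, 0.353 and 0.471 CPM in WT_PBS against 2.84, 9.79 and 4.04 CPM in CKO_PBS and missed the threshold (log2 3.25, adjusted p = 0.0706). Rpl29 has 12 near-identical copies in the annotation, at 98% or more over at least 200 bases, so counts of this family depend on how reads that match several places were handled, which is not given in the sources used here.

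The other called pseudogenes behaved alike in that the control libraries were near the floor or low and the knockout libraries higher. Gm11868 (chr4:18844202-18845679), whose best coding match is Cyb5r4 on chromosome 9 (98% over 1485 bases), was at 0.354, 0 and 0.118 CPM in WT_PBS against 10.02, 11.2 and 11.8 CPM in CKO_PBS (log2 6.06 ± 0.51, edgeR adjusted p = 0.000167). Gm13410 (chr2:24178834-24180317), whose best match is Ddx6 (92.8% over 1454 bases), was at 0.0505, 0 and 0.118 CPM in WT_PBS, from 1, 0 and 2 reads, and 2.79, 3.46 and 4.13 CPM in CKO_PBS (log2 5.85 ± 0.92, adjusted p = 0.0376). Gm13456 (chr2:40555752-40557116), whose best match is the elongation factor gene Eef1a1 (96.8% over 1390 bases), was at 8.29, 7.81 and 8.72 CPM in WT_PBS against 13.9, 14.2 and 18.5 CPM in CKO_PBS (log2 0.91 ± 0.14, adjusted p = 0.0376). All 5 called pseudogenes lie on chromosomes 1, 2 and 4, and all 5 have their best protein-coding match on chromosome 9. The matches were looked up after the calls were seen. Gm13410 lost its call without any single PBS library, without WT_CRE replicate 3 or without CKO_CRE replicate 3 (adjusted p from 0.0537 to 0.306). Gm13456 lost it without any WT_PBS or WT_CRE library, without CKO_PBS replicate 3 or without CKO_CRE replicate 3 (adjusted p from 0.0525 to 0.306).

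Only Rpl29 among the 5 parents was itself called, and for this family the sum of parent and copies also differed. Tma7 was at 60.5, 60.2 and 61.4 CPM in WT_PBS against 46.8, 43.2 and 43.6 CPM in CKO_PBS (log2 -0.45 ± 0.15, edgeR adjusted p = 0.634), with groups that did not overlap. Its sum with Tma7-ps was 60.7, 60.4 and 61.8 CPM against 61.7, 61.5 and 56.5 CPM, which overlap. Cyb5r4, a cytochrome b5 reductase, was at 59.7, 58.3 and 53.5 CPM against 43.7, 43.2 and 48.2 CPM, and its sum with Gm11868 was 60, 58.3 and 53.6 CPM against 53.7, 54.4 and 60 CPM, which overlap as well. In both families the gain of the pseudogene was close in size to the shortfall of the parent. The Rpl29 family summed to 213, 205 and 241 CPM in WT_PBS against 40.4, 55.4 and 50.2 CPM in CKO_PBS, so its copies held only a small part of what the parent lacked. In the families of Ddx6, an RNA helicase, and Eef1a1 the pseudogenes held little of the summed counts. Ddx6 was at 474, 432 and 452 CPM against 459, 479 and 492 CPM, and Eef1a1 at 4271, 4277 and 4382 CPM against 3963, 4846 and 4262 CPM, both with an adjusted p of 1.

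**Figure D3:**
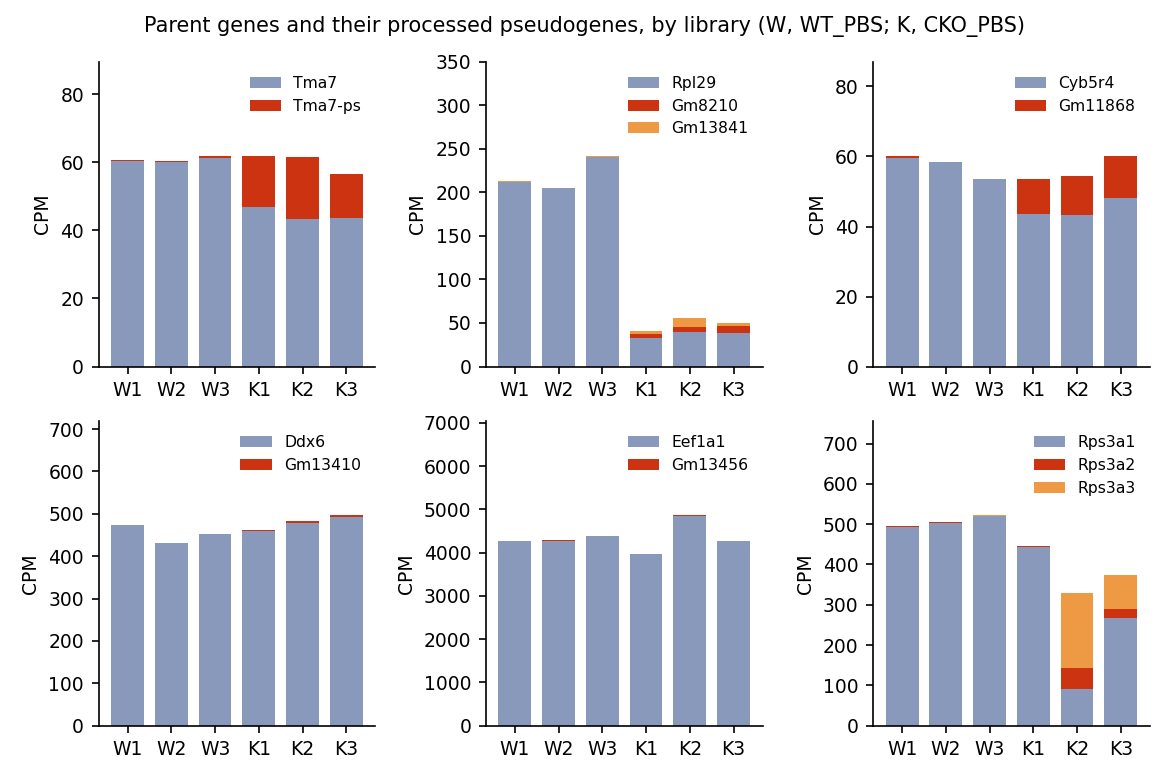
CPM of parent genes and of their processed pseudogenes, stacked, in each of the 6 libraries (W1 to W3, WT_PBS; K1 to K3, CKO_PBS). For Tma7 and Cyb5r4 the stacks reach similar heights in both groups, while the Rpl29 stack is 40.4 to 55.4 CPM in CKO_PBS and 205 to 241 CPM in WT_PBS.

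Across the annotation, 413 processed pseudogenes were tested and 384 had an identifiable coding parent. Of the 27 whose parent lies on chromosome 9 while they lie on another chromosome, 5 were called higher by edgeR. Over all tested genes it called 0.0401% higher. These 5 calls had been seen before the parents were looked up. At an unadjusted p below 0.05, 9 of the 27 (33.3%) were higher and 0 lower. Of the 355 with a parent elsewhere, 0 were called in edgeR, a count near the 0.109% called over all tested genes. At an unadjusted p below 0.05, 41 (11.5%) were higher and 5 (1.41%) lower, against 2.87% and 2.45% of all tested genes. DESeq2 called 9 and limma-voom 5, all higher, where these tools called 0.315% and 0.309% of all genes higher. Protein-coding genes below 5 CPM on average gave 4.36% higher and 3.7% lower at an unadjusted p below 0.05. Their median level was 1.64 CPM, against 0.74 CPM for the 355, so the levels were not matched. The lean of the 355 towards the knockout was not the same in all libraries, with medians against the control mean of 0.01, 0.07 and 0.16 in CKO_PBS replicates 1 to 3.

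A ribosomal protein gene on chromosome 3, Rps3a1, showed a related pattern, large in 2 knockout libraries, and was picked out after its values were seen. It was at 494, 503 and 520 CPM in WT_PBS and at 444, 90.2 and 267 CPM in CKO_PBS. Its pseudogene Rps3a3 was at 0.404, 1.11 and 0.589 CPM in WT_PBS and at 0.465, 186 and 84.3 CPM in CKO_PBS (edgeR adjusted p = 0.121). Rps3a2 went the same way, with 1.60, 53.4 and 23.1 CPM in CKO_PBS. The gain of the copies was largest where Rps3a1 was lowest, in CKO_PBS replicate 2, while replicate 1 was close to the controls, slightly below them for Rps3a1 and slightly above for Rps3a2.

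Away from chromosome 9, 3 protein-coding genes differed. Alad (chr4:62509169-62519918) encodes aminolevulinate dehydratase, the second enzyme of heme synthesis, and rose from 30.3, 30.6 and 32.1 CPM in WT_PBS to 64.1, 58.7 and 65.7 CPM in CKO_PBS (log2 1.02 ± 0.07, edgeR adjusted p = 6.13e-05). The knockout libraries lay at close to 2 times the control level with little spread. No other gene of 18 tested for heme synthesis and degradation was called, and the median of that list was -0.01. With 0.109% of all tested genes called, a count of 0 among the others is near the background. Alas1, which catalyses the first step and lies on chromosome 9, 2.07 Mb before the start of Rhoa, was not called (log2 -0.28, adjusted p = 0.834). Its unadjusted p in edgeR was 0.0286. Between the same genotypes under CRE it was called lower (log2 -0.62, edgeR adjusted p = 0.0279). The gene beside Alad on chromosome 4, Hdhd3, was at 3.18, 1.76 and 2.95 CPM in WT_PBS against 7.70, 5.03 and 6.63 CPM in CKO_PBS (log2 1.29, adjusted p = 0.121), and was picked out after its values were seen.

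Fanca (chr8:123268300-123318576), a subunit of the Fanconi anemia core complex for repair of crosslinked DNA, was at 7.43, 9.02 and 9.72 CPM in WT_PBS against 3.26, 4.11 and 3.03 CPM in CKO_PBS (log2 -1.33 ± 0.21, edgeR adjusted p = 0.0376). It overlaps Zfp276 on the opposite strand, and without strand the reads of the overlap cannot be told apart. By edgeR it was the only called gene of 19 in its pathway, whose median was -0.02. A count of 0 among the others is near the 0.109% called over all tested genes. Fhdc1 (chr3:84442198-84480429) encodes a formin that acts on actin and microtubules, and it fell from 70.8, 71.3 and 70.7 CPM to 49.3, 38.2 and 40.6 CPM (log2 -0.73 ± 0.12, adjusted p = 0.0481). The call of Fanca was lost without any single WT_PBS or WT_CRE library and without CKO_PBS replicate 1 or 3 (adjusted p from 0.0525 to 0.267). That of Fhdc1 was lost without any single WT_PBS or WT_CRE library, without CKO_PBS replicate 2 or 3 and without CKO_CRE replicate 3 (adjusted p from 0.0657 to 0.315).

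Just short of the threshold, the uncalled genes with the smallest p included C6, a component of the terminal complement complex, at 34.4, 31.2 and 34.2 CPM in WT_PBS against 56.8, 47.9 and 51.0 CPM in CKO_PBS (log2 0.64, edgeR adjusted p = 0.0571). Klhdc4 on chromosome 8 was at 44.4, 44.7 and 44.9 CPM against 23.8, 20.8 and 18.8 CPM (log2 -1.08, adjusted p = 0.0571). Hjurp, the chaperone that deposits the centromeric histone, was at 85.6, 73.8 and 79.4 CPM against 41.1, 32.1 and 26.9 CPM (log2 -1.26, adjusted p = 0.0815). In all 3 genes the groups did not overlap. Ccdc153, a ciliated cell gene on chromosome 9, was at 58.2, 72.8 and 60.7 CPM against 27.8, 42.7 and 28.9 CPM (log2 -0.95, adjusted p = 0.0864).

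The same pair of genotypes given CRE, in 6 libraries whose levels do not enter the PBS difference, although they share in the estimate of spread, gave a second reading of the called genes. All 19 differed in the same direction there with groups that did not overlap, and 14 of the 19 passed the adjusted threshold in that comparison too, against 0.916% of all tested genes. The 5 that did not were Nxpe2 (log2 -1.67, edgeR adjusted p = 0.0808), Gm9917 (log2 -0.76, adjusted p = 0.0813), Gm13410 (log2 2.46, adjusted p = 0.131), Fanca (log2 -0.63, adjusted p = 0.147) and Fhdc1 (log2 -0.29, adjusted p = 0.244). The sizes under PBS and CRE were closest for Nxpe4 (-3.40 and -3.36), Gm32742 (2.27 and 2.33), Pxylp1 (-1.24 and -1.17) and Gm13456 (0.91 and 0.78). The widest gaps, CRE minus PBS, were -3.39 ± 1.31 for Gm13410, -3.12 ± 1.31 for Gm8210 and 2.94 ± 0.63 for Nxpe2. Each had few or no reads in 1 PBS group. Gm13410 had 1, 0 and 2 reads and Gm8210 had 0 in the WT_PBS libraries, and Nxpe2 had 4, 2 and 8 in CKO_PBS. For Gm8210, without reads in WT_PBS, the fitted size depends on the prior count. Gclc differed more under CRE, -1.81 against -1.23, and Alad less, 0.71 against 1.02. In edgeR the difference between the treatments passed its own test for none of the 19, with adjusted p from 0.209 to 0.976, while 9 of them had an unadjusted p below 0.05, as did 10.3% of all tested genes. That does not show the responses to be equal. Of the 11 chromosome 9 genes, 9 were called under CRE. Under CRE the genotypes differed at many more genes, 160 against 19, while the shares of genes whose groups did not overlap were 15.1% and 15.2%.

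**Figure D4:**
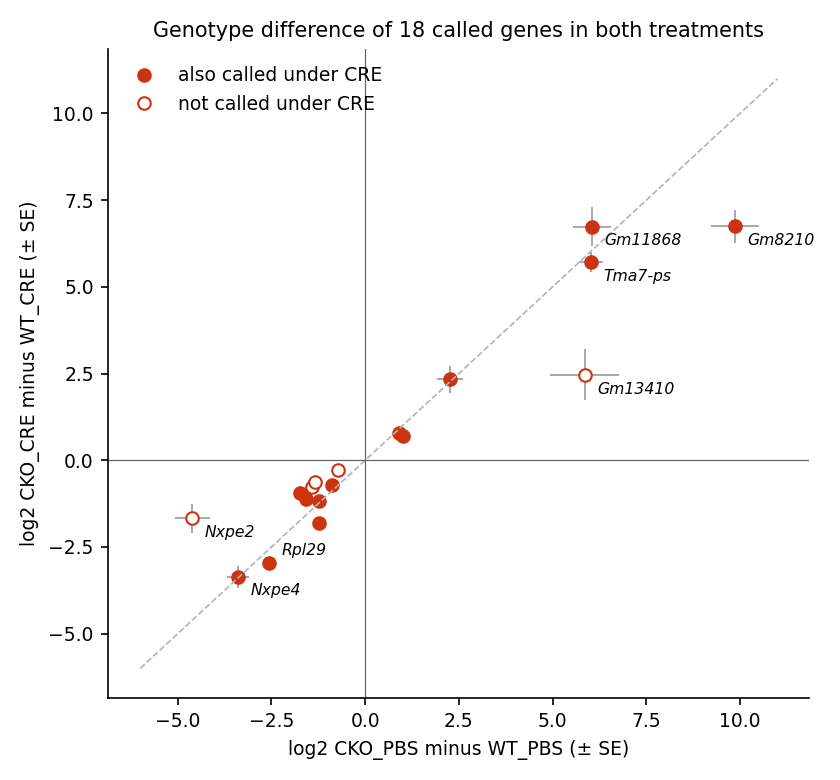
Genotype difference of 18 of the 19 called genes under PBS (horizontal axis) and under CRE (vertical axis), as log2 CKO minus WT with the standard error as bars; filled points were also called under CRE, open points were not. All 18 points lie in the quadrants where both differences have the same sign.

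No marker of a cell type was called by edgeR, where 0.109% of all tested genes were. The marker lists are described by their counts and medians. Fewer cells of a type and less RNA per cell cannot be told apart in whole lung. Genes of club cells, the intended target of the knockout, had a median of -0.30 over 24 tested members. At an unadjusted p below 0.05, 5 were lower and 1 was higher, against 2.45% and 2.87% of all tested genes. The count of 5 became 3 without WT_PBS replicate 2 or 3 or CKO_PBS replicate 1 or 3, 8 without CKO_PBS replicate 2 or CKO_CRE replicate 1, and 12 without CKO_CRE replicate 2. The groups did not overlap and the knockout was lower for 9 members, against 7.53% of all tested genes. Pon1, a lactonase, was at 92.4, 73.2 and 78.7 CPM in WT_PBS and at 46.3, 47.7 and 36.6 CPM in CKO_PBS (log2 -0.90 ± 0.21). Cyp2f2, the main club cell P450, was at 1120, 1081 and 1147 CPM against 790, 808 and 725 CPM (log2 -0.53, adjusted p = 0.95). The secretoglobin Scgb3a2 was at 2259, 2419 and 2276 CPM against 1102, 1806 and 1857 CPM (log2 -0.55, adjusted p = 0.99). In these 3 genes every knockout library was below every control library, though none was called by edgeR. DESeq2 called 3 members lower, among them Pon1 and Lypd2, and limma-voom 5, among them Pon1, Lypd2, Cyp2f2 and Scgb3a1. Of all genes, these tools called 0.338% and 0.527% lower. Scgb1a1 had an interval from 38.4% lower to 70.6% higher, too wide to place it. Krt15, listed with the club cell genes, was higher (log2 2.48, adjusted p = 0.308).

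Ciliated cell genes, which make the beating cilia of the same airways, leaned the same way. The median over 26 tested members was -0.30 and the difference was negative in 26 of 26. At an unadjusted p below 0.05, 6 were lower and 0 higher, against 2.45% and 2.87% of all tested genes, and 9 were lower without overlap, against 7.53%. The count of 6 became 2 without WT_PBS replicate 2 or CKO_PBS replicate 3, 3 without WT_PBS replicate 3 or CKO_PBS replicate 1, and 12 without CKO_CRE replicate 2. Of the 26 members, 0 were called by edgeR, 1 by DESeq2 (Ccdc153) and 4 by limma-voom (Ccdc153, Dnah11, Tmem212 and Cfap44), all lower, where these tools called 0.338% and 0.527% of all genes lower. Foxj1, the regulator of motile cilia, had an interval from 39.8% lower to 26.2% higher. The lean was not equal in the knockout libraries: the list medians against the control mean were -0.48, -0.05 and -0.40 in CKO_PBS replicates 1 to 3, and for club cell genes -0.30, -0.07 and -0.30. Replicate 2, the library with no Y-linked counts, lay near the controls in both.

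Genes of mucus and goblet cells had a median of -0.06 over 23 members. At an unadjusted p below 0.05, 5 were lower and 2 higher, against 2.45% and 2.87% of all tested genes. The count of 5 became 2 without WT_PBS replicate 1, 3 without CKO_PBS replicate 3 and 9 without CKO_PBS replicate 2. Tff2, a mucus-associated trefoil peptide, was at 17.8, 22.4 and 13.7 CPM in WT_PBS against 1.91, 8.78 and 2.31 CPM in CKO_PBS (log2 -2.04 ± 0.43, edgeR adjusted p = 0.14). Muc5b, the main mucin of the resting mouse airway, was at 84.8, 70.7 and 75.8 CPM against 23.3, 83.3 and 29.9 CPM (log2 -0.76, adjusted p = 0.95). Muc5ac, the inducible mucin, was at 8.59, 6.70 and 4.36 CPM against 3.36, 5.17 and 1.20 CPM (log2 -1.02, adjusted p = 0.726). DESeq2 and limma-voom called Tff2 and Fcgbp, a mucus glycoprotein, lower, where they called 0.338% and 0.527% of all genes lower. In Tff2, Muc5b and Muc5ac, CKO_PBS replicate 2 was the highest knockout library, and for Muc5b it reached the controls while the other two stayed below.

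Type 1 alveolar genes had a median of -0.02 over 16 members, with no member at an unadjusted p below 0.05. Type 2 alveolar and surfactant genes had a median of 0.11 over 21 members, 20 of them positive. For 7 of these the knockout was higher without overlap, where 7.65% of all tested genes were. Il33, an alarmin that type 2 cells hold in the nucleus, was at 146, 130 and 121 CPM in WT_PBS against 159, 253 and 196 CPM in CKO_PBS (log2 0.61, edgeR adjusted p = 0.428).

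Barrier genes, which the title of the series points to, showed no more calls than the background in the absence of CRE. Of 29 tight junction genes 0 were called by edgeR, DESeq2 or limma-voom, where edgeR called 0.109% of all tested genes. The median was -0.06, and 1 was higher and 1 lower at an unadjusted p below 0.05, shares near the 2.87% and 2.45% of all tested genes. Tjp1, the scaffold protein ZO-1, had an interval from 29.4% lower to 18.4% higher. Cldn18, the claudin of alveolar epithelium, had an interval from 16.4% lower to 18.7% higher.

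Among immune cells the mature neutrophil list stood farthest from 0. Its median was 1.16 over 24 tested members, 23 of them positive. At an unadjusted p below 0.05, 13 were higher and 0 lower, against 2.87% and 2.45% of all tested genes. Of its members 0 were called by edgeR, 2 by DESeq2 (Mmp8 and Lrg1) and 1 by limma-voom (Lrg1). The calls of DESeq2 and limma-voom were all higher, where these tools called 0.315% and 0.309% of all genes higher. The summed level of its genes, tested or not, was 397, 325 and 308 CPM in WT_PBS against 561, 937 and 474 CPM in CKO_PBS, and the groups did not overlap. S100a9, which encodes a calcium-binding protein abundant in neutrophils, was at 32.3, 17.4 and 20.2 CPM in WT_PBS against 68.6, 142 and 33.1 CPM in CKO_PBS (log2 1.80 ± 0.54, edgeR adjusted p = 0.472). Its partner S100a8 was at 13.6, 10.4 and 10.7 CPM against 39.3, 62.8 and 13.8 CPM (log2 1.74, adjusted p = 0.493). Csf3r, the receptor for the neutrophil growth factor, was at 29.7, 21.1 and 20.9 CPM against 50.2, 85.7 and 32.4 CPM (log2 1.23, adjusted p = 0.482). The 3 knockout libraries differed among themselves, replicate 2 being highest and replicate 3 close to the controls, with list medians of 0.76, 1.60 and 0.32. Without CKO_PBS replicate 2, 8 members were higher at an unadjusted p below 0.05, 7 of them among the 13. The same library stood apart in 2 other lists. The summed level of 19 heat shock and unfolded protein response genes was 5967, 5504 and 5585 CPM in WT_PBS against 4582, 8648 and 5406 CPM in CKO_PBS. The median of 22 immediate early genes against the control mean was -0.13, 0.48 and -0.02 in the knockout libraries. The part of these lists in the neutrophil values was not tested. Genes of neutrophil granules and precursors had a median of 0.37 over 9 tested members, and the precursor genes Mpo, Elane, Ctsg, Fcnb and Ms4a3 were too low to be tested.

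Monocyte genes had a median of 0.26 over 16 members, all positive. For 7 the knockout was higher without overlap, against 7.65% of all tested genes, and 1 was higher at an unadjusted p below 0.05, near the 2.87% of all tested genes. T cell genes had a median of 0.22 over 20 members, with none at that threshold. Interstitial macrophage genes, which the title of the series also names, had a median of -0.01 over 24 members, 12 above and 12 below 0. None of them had an unadjusted p below 0.05. C1qa, a complement component typical of these cells, differed by -0.13 with an adjusted p of 1. Alveolar macrophage genes had a median of 0.07 over 20 members, and Chil3, their abundant chitinase-like protein, differed by 0.27 with an adjusted p of 1. Of the type 2 cytokine genes, Il13 and Ccl11, the eotaxin that attracts eosinophils, both had an adjusted p of 1.

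Markers of heart muscle and fat, which border the lung or, for heart muscle, sheathe its veins, also varied between libraries. The summed level of 16 cardiac muscle genes was 553, 376 and 527 CPM in WT_PBS against 737, 481 and 701 CPM in CKO_PBS, with overlapping groups. The summed level of the adipocyte list, 13 genes of which 11 were tested, was 294, 292 and 349 CPM against 201, 274 and 226 CPM, without overlap. The median of the tested ones was -0.49. Cfd, the complement factor made by fat cells, was the lowest (log2 -1.64, edgeR adjusted p = 0.339), and DESeq2 and limma-voom called it. In CKO_PBS replicates 1 to 3 the adipocyte medians were -0.62, -0.17 and -0.98, so that replicate 2 was nearest to the controls as it was for the club and ciliated lists. The part of tissue sampling in the airway and immune values was not tested. Genes of cholesterol and fatty acid synthesis had a median of 0.15 over 20 members. At an unadjusted p below 0.05, 3 were higher and 0 lower, against 2.87% and 2.45% of all tested genes. The 20 cytochrome P450 genes had a median of -0.06 with none at that threshold.

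**Figure D5:**
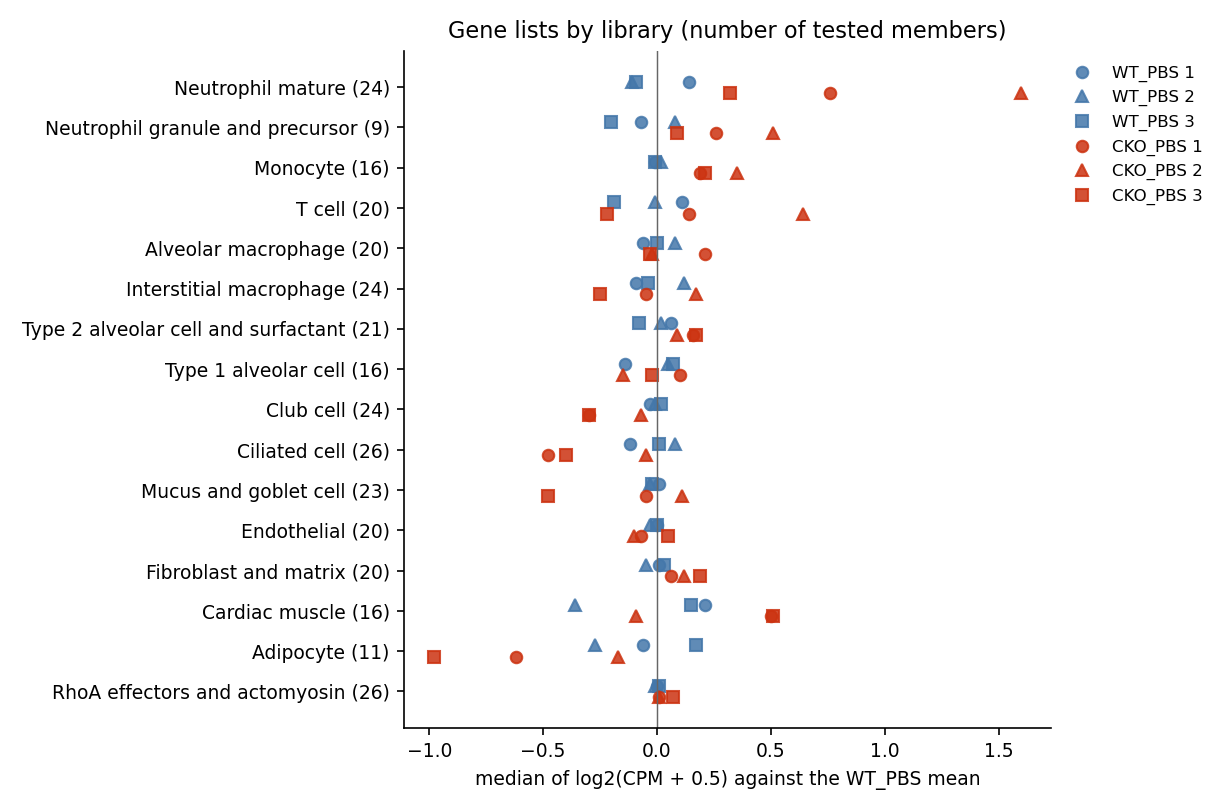
Median over the tested members of each gene list of log2(CPM + 0.5) against the WT_PBS mean, 1 symbol per library, with the number of tested members in brackets. The mature neutrophil medians of the CKO_PBS libraries are 0.76, 1.60 and 0.32, the club and ciliated medians of CKO_PBS replicates 1 and 3 lie at -0.30 to -0.48, and replicate 2 lies near the controls for both.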

How the data were processed

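Whole-lung mRNA was sequenced from 12 libraries in 4 groups of 3. The deposited table holds whole-number counts per gene that the authors made from their reads, and the mm10 build, STAR and fastp are named per the submitters' processing notes. The RNA was selected with oligo-dT beads, per the labels' protocols; a strand-specific kit is not named. How reads were counted (tool, strand, multi-mapping reads, annotation) is not given in the sources used here. Of 54532 identifiers 54495 matched GENCODE M21 (GRCm38), and 22229 had no counts. Totals ran from 16250674 to 21559210 counts, and floors and intervals cover counting error or the spread between libraries only.

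Counts were analysed with edgeR 4.0.16 (R 4.3.3) by TMM, filterByExpr and the quasi-likelihood F test on group means over the 12 libraries, which gave 17473 tested genes, 8 residual degrees of freedom and a biological coefficient of variation of 17.4%. P-values were adjusted by Benjamini-Hochberg over all tested genes with a threshold of 0.05 for calls. CPM are TMM-scaled, and the standard error is the log2 difference divided by the root of F. Near-identical copies and parents of pseudogenes were found with blastn 2.17.0, a parent being the best plus-strand coding match over at least 50% of the pseudogene. On simulated counts for this comparison (17473 genes, 200 changed) edgeR found 11% of the changed genes when the fold was 1.5, 63.5% when it was 2 and 84% when it was 4, with 4.35%, 5.93% and 2.89% false calls, whereas DESeq2 gave 21.7%, 18.7% and 13.4% false calls. No pair of replicates agreed within sampling noise.

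The alternatives were DESeq2 1.42.0, limma-voom 3.58.1 with quality weights, DESeq2 size factors, no filter, the 6 PBS libraries alone, the replicate number as a block, sex as a covariate, and each library left out. The text names all called genes but 1, which is not reported here, uncalled genes among the 10 with the smallest p, list members with an unadjusted p below 0.05 (at most 3 a direction, at 1 CPM or more), a fixed set led by Rhoa, and the neighbours of Rhoa; genes outside this rule (Rassf1, Gclm, Nxpe3, Alas1, Hdhd3, parents and further pseudogenes, and the lung markers) were added as context after values were seen. The comparison, the lists and the genes of interest were chosen with earlier results of these data known.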

Additional observations from a re-analysis of the deposited data

How the results depend on the processing

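All 19 called genes kept their direction in all 19 other analyses, and 12 of them (among them Gclc, Rpl29, Cbl, Alad, Gm9917, Nxpe4, Tma7-ps, Hykk, Gm11868, Gm8210 and Nxpe2) kept their call in all. Size factors from DESeq2 in the edgeR fit changed no call. The number of genes called depended on the test. DESeq2's Wald test called 114 (55 higher, 59 lower, 38 on chromosome 9, 54 also called under CRE), limma-voom 146 (54, 92, 44 and 74), edgeR without the low-count filter 89 (53, 36, 23 and 49), and edgeR on the 6 PBS libraries alone 74 (30 higher, 44 lower, 22 on chromosome 9), against 19 (7, 12, 11 and 14). All 19 were among the genes called by each of these, and the cause of the larger counts was not tested. With sex as a covariate 16 were called, without Fhdc1, Gm13410 and Gm13456. Leaving out 1 library gave 12 to 53 called genes, 4 to 20 higher, 8 to 33 lower, 8 to 23 on chromosome 9 and 9 to 34 also called under CRE; each highest value was without CKO_CRE replicate 2, which stands outside the PBS comparison. Members at an unadjusted p below 0.05 then numbered 8 to 18 for mature neutrophils, 3 to 12 for club cells, 2 to 12 for ciliated cells and 2 to 9 for mucus and goblet cells. The club cell count of 5 became 13 with limma-voom, 9 without the filter and 10 in the 6 PBS libraries, the ciliated count of 6 became 15 with limma-voom and 11 in the 6 PBS libraries, and the mucus count of 5 became 8 with limma-voom. Rhoa was not called in any analysis, with log2 values from -0.15 to -0.02 when 1 library was left out. The replicate numbers did not pair the libraries: deviations of same-numbered libraries correlated at 0.027, 0.015 and 0.032, below the 0.1 taken as pairing, although each was the highest for its number, a hint from the data and not the design. With the replicate number as a block 17 genes were called, among them 15 of the 19 (not Fanca, adjusted p = 0.0518, Nnmt, 0.0543, Gm13456, 0.0582, or Gm13410, 0.0747). With 3 libraries a side, changes of 1.5-fold were mostly below what could be called, and genes with few reads in both groups were not resolved.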
